A study of Macaca mulatta with 14 samples.

Results

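The nuclear genes of oxidative phosphorylation (OXPHOS) were followed while rhesus macaque fibroblast cells were converted to neuroepithelial stem cells (NESCs). A locus was counted as a member when its label in the gene table was an NDUFA, NDUFB, NDUFC, NDUFS or NDUFV number, an SDH letter, CYC1, or a symbol starting with UQCR, COX4 to COX8 or ATP5, assembly factors being left out. This gave 78 loci of the 33688 that kept values, under 77 symbols, since SDHD stood on 2 loci: 37 loci of complex I, 5 of complex II, 6 of complex III, 13 of complex IV and 17 of complex V. The rule uses names alone, but it was set with earlier results of these data known.

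Total RNA was sequenced after ribosomal RNA removal, in 14 libraries from 7 cell lines, 2 for each. The NESC lines were CHIR-P6 and CHIR-P23 (passages 6 and 23) and C8-P7 and A9-P7, single-cell colonies picked from the passage 23 culture. The earlier lines were RF-P3, the starting ear skin fibroblasts of 2 male fetuses at embryonic day 65, and RF-iN-d5 and RF-iN-d11, the same cells on day 5 and day 11 of the conversion. All lines but RF-P3 carried retroviral SOX2, OCT4 and KLF4 of monkey sequence. RF-P3 grew in serum-containing DMEM. The induction medium of both RF-iN lines was Neurobasal with B27, N2, vitamin C, CHIR99021, SB431542 and bFGF, with Y27632 and valproic acid added at first. The NESC medium had human LIF besides, and the labels and the methods differ on whether it kept CHIR99021. The lines are thus successive stages of a single conversion, each in the medium of its stage, and stage and medium cannot be told apart.

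The values are FPKM (fragments per kilobase of transcript, scaled to the mapped fragments of the library), so that levels of different genes are comparable per length. Where the lines are given 1 by 1, the NESC values run from CHIR-P6 over CHIR-P23 to C8-P7 and then A9-P7, and the earlier values from RF-P3 over day 5 to day 11. Within a line, the 2 libraries were closer to each other than counting noise allows, so they were averaged and taken as 1 sample. The libraries summed to between 571238 and 697883 FPKM, RF-P3 being the highest, and by the steps in low values CHIR-P23 and A9-P7 were read 4.73 and 5.28 times as deeply as RF-P3, the other lines at most 1.54 times. All 7 fibroblast markers fell in the NESC lines (summed 0.982 to 47.6 FPKM, against 2709 to 6008 FPKM in the earlier lines) and all 8 neuroepithelial markers rose (765 to 1295 FPKM, against 60.9 to 298 FPKM). Not all of these 8 were high in every NESC line. SOX3, SOX1 and PAX6 had 0.05, 0.275 and 2.25 FPKM in CHIR-P6, against 36.7, 4.61 and 16.7 FPKM in CHIR-P23. SOX3 and FABP7 overlapped between the groups, and the others did not. Of 6 neuron markers 3 rose and 1 fell. The endothelial and blood markers summed to at most 6.62 and 0.915 FPKM in the NESC lines, against at most 13.5 and 4.87 FPKM in the earlier lines.

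OXPHOS is the way in which mitochondria make most of the ATP of a resting cell. Complexes I and II take electrons from NADH and succinate, complexes III and IV pass them on to oxygen while protons are pumped out of the matrix, and complex V, the ATP synthase, uses the returning protons to make ATP. Most subunits are encoded in the nucleus, while a few core ones are encoded in mitochondrial DNA. Stem cells of early embryos are known to rely on glycolysis to a large degree, and neurons on OXPHOS.

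Most members were abundant and moved little. Of the 78 loci, 74 passed the filter of 1 FPKM in at least 2 libraries, and each of these 74 was above 1 FPKM in every line. Their mean over the 7 lines had a median of 123 FPKM, against 9.499 FPKM over all 15024 genes tested. It ranged between 4.59 FPKM (ATP5S, which matched the name rule but is no subunit) and 986 FPKM (UQCRH). The highest line was a median of 1.502 times the lowest (on FPKM + 1), against 2.25 times over all genes tested. This ratio was 2 or more in 13 members, or 17.6%, against 59.5% of all genes tested. Most genes tested have lower levels than the members, and the ratio was not compared with that of genes at a like level.

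The 4 loci that did not pass were the tissue-restricted partners of ubiquitous complex IV subunits. COX7B2 was listed at 0 in all libraries. COX4I2, a hypoxia- and lung-associated partner of COX4I1, had 0.423 FPKM in CHIR-P6 and was listed at 0 elsewhere. COX6A2, the heart and skeletal muscle partner of COX6A1, had 0.484 FPKM in RF-P3 only, and COX6B2, the testis partner of COX6B1, had 0.0827 FPKM in A9-P7 only.

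The comparison of the 4 NESC lines with the 3 earlier lines asks which subunit genes differ between stem cells and the stages before them. The lines are stages of a single conversion, and both colonies came from CHIR-P23. They are therefore not independent samples, although the p-values treat them as such. limma on log2(FPKM + 1) with Benjamini-Hochberg adjustment over all genes called a gene at an adjusted p under 0.05 and at least 2-fold. It called 0 members higher and 1 lower of 74, COX7AH, while 20.8% of all genes tested were called (7.57% higher and 13.2% lower). At an unadjusted p under 0.05, 4 members were higher and 18 lower, where the shares over all genes were 22.1% and 26.4%. Among the 4533 genes averaging at least 20 FPKM, a level that 70 of the members reached, 18.0% were called. At an adjusted p under 0.05 with no minimum fold, 2 members were higher and 11 lower, where the shares over all genes were 16.8% and 20.6%. The NESC and earlier lines did not overlap in 19 members, 5 higher and 14 lower, where 45.8% of all genes did not, 21.1% being higher and 24.7% lower. The median log2 difference of the members, NESC minus earlier lines, was -0.11, against -0.02 over all genes. Its sign depended on the scale: it was 0.02 when the libraries were rescaled to the same total and 0.05 after quantile normalization, which moved the median of all genes to 0.09 and 0.16. Relative to all genes it was -0.09 as deposited, -0.08 rescaled and -0.11 after quantile normalization.

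**Figure D1:**
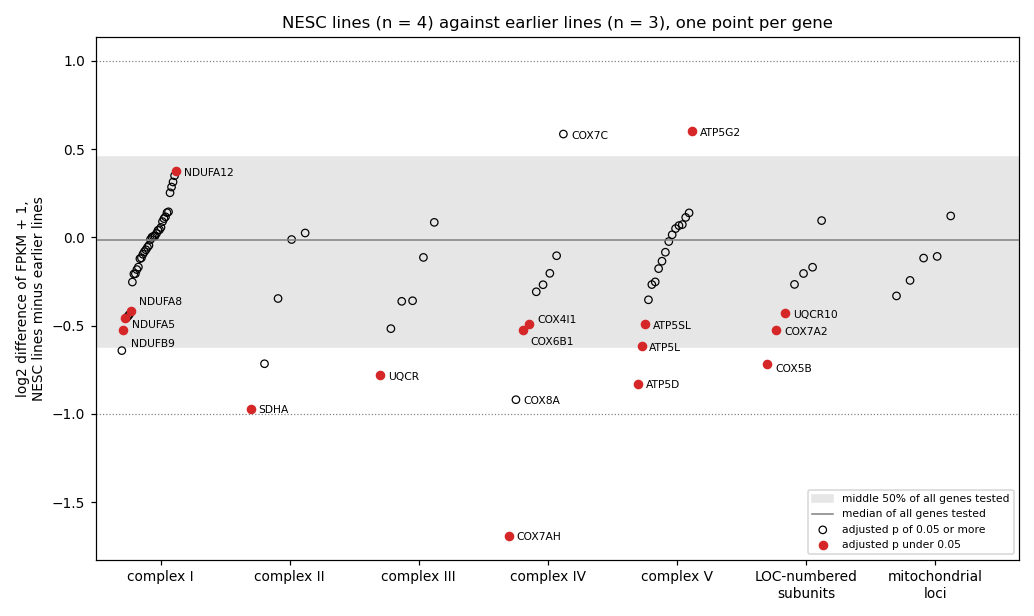
Log2 difference of FPKM + 1, NESC lines (n = 4) minus earlier lines (n = 3), for each tested gene of complexes I to V, the tested subunits that stand under LOC numbers and the 5 mitochondrial loci; filled points have an adjusted p under 0.05 (limma, Benjamini-Hochberg), dotted lines mark 2-fold and the grey band the middle 50% of all genes tested. COX7AH at -1.69 is the only point beyond a dotted line, and the complex I points gather around a median of -0.05.

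COX7AH, for which RefSeq has the newer name COX7A1, encodes the heart and skeletal muscle form of subunit VIIa of complex IV, the cytochrome c oxidase. It had 13.9, 11.4, 7.49 and 6.93 FPKM in the NESC lines, against 42.5, 28.9 and 29.4 FPKM in the earlier lines. The highest NESC line was below the lowest earlier line. It fell by 1.69 on the log2 scale (SE 0.26; limma, adjusted p = 0.00288), and was called under every setting tried, at differences between -1.86 and -1.38. The fall came in several steps: -0.54 at day 5, 0.02 at day 11, -1.03 at passage 6, -0.27 at passage 23 and -0.54 and -0.64 in C8-P7 and A9-P7.

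Its widely expressed partner COX7A2 stands under a LOC number (LOC717879) and was the more abundant form in every line. It had 125, 115, 103 and 117 FPKM in the NESC lines, against 171, 175 and 152 FPKM in the earlier lines. Its difference was -0.53 (SE 0.11, limma, adjusted p = 0.0102), without overlap but below 2-fold. Of the FPKM of both genes, COX7AH made up 9.99%, 8.98%, 6.80% and 5.59% in the NESC lines, against 19.9%, 14.2% and 16.3% in the earlier lines. COX7A2L, a paralog that joins complexes III and IV into supercomplexes, was at 6.64 to 13.2 FPKM in the NESC lines and 9.59 to 14.6 FPKM in the earlier lines (log2 difference -0.27, limma, adjusted p = 0.4). The locus so labelled stands among genes of another chromosome and may be a copy.

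Markers of striated muscle were highest in RF-P3 and, for DES, in CHIR-P6. MYH3 and MYH8 had no locus in the table, CKM stayed at or below 0.205 FPKM, and no muscle marker was called. The 4 markers found summed to 0.411 to 133 FPKM in the NESC lines, DES having 133 FPKM in CHIR-P6, and to 3.01 to 156 FPKM in the earlier lines, ACTC1, DES and TNNT2 having 70.9, 52.3 and 32.6 FPKM in RF-P3, the line in which COX7AH was highest. COX7AH moved in the same direction as the 7 fibroblast markers, and the part of muscle or fibroblast cells in its level was not tested. In bulk samples fewer cells of a type and less RNA per cell cannot be told apart.

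Complex IV held other members with lower values in the NESC lines. COX8A, the small ubiquitous subunit VIII, had 587, 325, 226 and 247 FPKM in the NESC lines, against 476, 694 and 684 FPKM in the earlier lines. CHIR-P6 lay among the earlier lines, and the log2 difference of -0.92 (SE 0.33, limma, adjusted p = 0.0609) did not pass. Without CHIR-P6 the difference of COX8A was -1.21 and it was called, as was SDHA. COX8C, its testis partner, is a LOC-numbered locus listed at 0 in all libraries.

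COX4I1, the ubiquitous subunit IV that binds ATP as a brake, had 436, 345, 318 and 323 FPKM in the NESC lines, against 541, 458 and 491 FPKM in the earlier lines (log2 difference -0.49, limma, adjusted p = 0.0303). COX6B1, which bridges the monomers of the dimeric enzyme, had 329, 283, 248 and 286 FPKM, against 444, 406 and 383 FPKM (log2 difference -0.52, limma, adjusted p = 0.0151). Neither gene overlapped between the groups, and neither difference reached 2-fold. Over the 21 settings tried, which include the main one, COX4I1 had an adjusted p under 0.05 in 10 (limma, up to 0.22). COX6B1 had it in 20 (limma, up to 0.0743). COX5B, under LOC707227, had 116, 80.4, 70.1 and 66.6 FPKM in the NESC lines, against 117, 145 and 142 FPKM in the earlier lines (log2 difference -0.72, limma, adjusted p = 0.0274).

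The most abundant complex IV members differed less. COX6C had 506 to 755 FPKM in the NESC lines and 592 to 823 FPKM in the earlier lines (log2 difference -0.31, limma, adjusted p = 0.21). COX7B had 543 to 695 FPKM in the NESC lines and 616 to 643 FPKM in the earlier lines (log2 difference -0.10, limma, adjusted p = 0.525). COX6A1, under LOC696956, had 283 to 360 FPKM and 305 to 390 FPKM (log2 difference -0.17, limma, adjusted p = 0.351). COX5A, a further subunit around the catalytic core, had 135 to 218 FPKM and 193 to 244 FPKM.

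Complex II, succinate dehydrogenase, is the only complex with no mitochondrial-encoded subunit, and also catalyses a step of the citric acid cycle. Its 4 subunits did not keep a fixed proportion at the RNA level. SDHA, the flavoprotein that oxidises succinate, had 56.2, 41.7, 32.2 and 33.4 FPKM in the NESC lines, against 94.7, 70.0 and 74.4 FPKM in the earlier lines. All NESC lines were below all earlier lines, and the log2 difference was -0.97 (SE 0.21, limma, adjusted p = 0.0113), just short of 2-fold. It passed 2-fold and was called when RF-iN-d5, RF-iN-d11 or CHIR-P6 was left out (-1.06, -1.01 and -1.13).

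SDHB, the iron-sulfur subunit, had 69.0, 65.5, 49.4 and 43.0 FPKM in the NESC lines, against 126, 92.7 and 67.0 FPKM in the earlier lines. CHIR-P6 and RF-iN-d11 overlapped, and the log2 difference of -0.72 (SE 0.25, limma, adjusted p = 0.0548) did not pass. SDHC, a membrane anchor, stayed between 66.8 and 75.6 FPKM in the NESC lines and between 68.3 and 72.1 FPKM in the earlier lines (log2 difference -0.01, SE 0.10), the second smallest range over lines of all members tested.

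The ratio of SDHA to SDHC was 0.744, 0.613, 0.483 and 0.474 in the NESC lines, against 1.32, 0.972 and 1.09 in the earlier lines. The ratio of SDHB to SDHC was 0.912, 0.963, 0.740 and 0.611 in the NESC lines, against 1.75, 1.29 and 0.981 in the earlier lines. SDHD, the other anchor, stood on 2 loci. The locus whose neighbours lie on the chromosome of SDHD in RefSeq had 14.3 to 24.1 FPKM in the NESC lines and 19.2 to 31.1 FPKM in the earlier lines (log2 difference -0.35, limma, adjusted p = 0.249). The other SDHD locus, among genes of another chromosome, had 29.0 to 38.0 FPKM and 25.5 to 39.4 FPKM (log2 difference 0.03) and may be a copy.

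**Figure D2:**
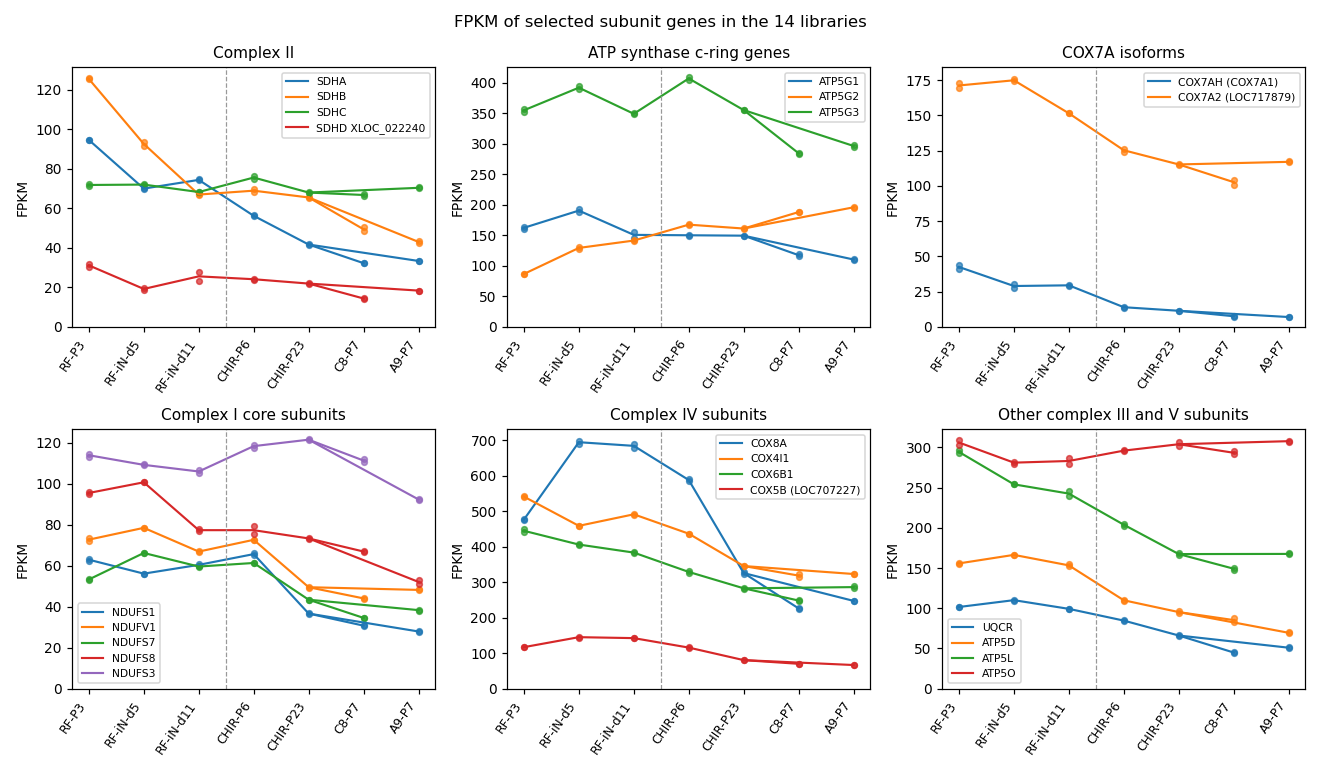
FPKM of selected subunit genes by cell line in order of the conversion; points are the 14 libraries, lines join the averages, both colonies being joined to CHIR-P23 from which they were picked, and the dashed line separates the earlier lines (left) from the NESC lines. SDHA and SDHB descend below the level SDHC, ATP5G2 ascends to 188 and 196 FPKM in the colonies and crosses ATP5G1, and NDUFS1, NDUFV1, NDUFS7 and COX8A are lower in every NESC line after CHIR-P6.

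Complex I, the NADH dehydrogenase, had 37 members, 0 of which were called by limma (3 higher and 6 lower at an unadjusted p under 0.05, all genes having 22.1% and 26.4%). Its median log2 difference was -0.05, and the summed FPKM of its members stayed between 4412 FPKM in A9-P7 and 4912 FPKM in RF-iN-d5. NDUFS5 and NDUFB4 were its most abundant members. NDUFS5 had 374 to 462 FPKM in the NESC lines and 398 to 434 FPKM in the earlier lines, and NDUFB4 had 304 to 395 FPKM and 320 to 451 FPKM.

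At an adjusted p under 0.05 with no minimum fold, 3 complex I members were lower and 1 higher, all 4 of them accessory subunits. NDUFB9 had 118, 117, 107 and 90.4 FPKM in the NESC lines, against 160, 164 and 142 FPKM in the earlier lines (log2 difference -0.52, limma, adjusted p = 0.0169). NDUFA5 had 55.6, 62.9, 52.5 and 49.4 FPKM, against 85.9, 75.1 and 67.4 FPKM (log2 difference -0.46, limma, adjusted p = 0.0301). NDUFA8 had 98.7, 99.6, 82.0 and 94.6 FPKM, against 116, 134 and 126 FPKM (log2 difference -0.42, limma, adjusted p = 0.026). None of these 3 genes overlapped between the groups. NDUFA12, an accessory subunit whose paralog NDUFAF2 is an assembly factor, had 127, 142, 146 and 144 FPKM in the NESC lines, against 94.3, 123 and 107 FPKM in the earlier lines (log2 difference 0.38, limma, adjusted p = 0.0453). An adjusted p under 0.05 was reached in 19 of the 21 settings for NDUFB9, 12 for NDUFA5 and NDUFA8, and 13 for NDUFA12. The highest were 0.056 for NDUFB9, 0.0841 for NDUFA5, 0.172 for NDUFA8 and 0.118 for NDUFA12 (limma).

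The 7 nuclear core subunits, which carry the flavin and iron-sulfur clusters or the quinone site, were split from the 30 accessory ones by textbook knowledge, after their values were seen. Their median log2 difference was -0.44, against 0.00 for the accessory subunits. Of the 7, 0 were called by limma, where 20.8% of all genes were. At an unadjusted p under 0.05, 3 were lower (limma), where the share over all genes was 26.4%. The locus labelled NDUFV2, counted among the 7, stands among genes of another chromosome and may be a copy. NDUFS1, an iron-sulfur protein of the arm that oxidises NADH, had the lowest difference of complex I, with 65.6, 36.7, 30.7 and 27.9 FPKM in the NESC lines, against 62.9, 56.1 and 60.4 FPKM in the earlier lines (log2 difference -0.64, SE 0.28, limma, adjusted p = 0.101). NDUFS1 was highest in CHIR-P6 and lowest in the other NESC lines.

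NDUFV1, the flavin-carrying subunit, had 72.6, 49.5, 44.0 and 48.2 FPKM in the NESC lines, against 72.7, 78.5 and 66.9 FPKM in the earlier lines. NDUFS7 had 61.3, 43.4, 34.5 and 38.3 FPKM, against 53.3, 66.2 and 59.6 FPKM. For both NDUFV1 and NDUFS7, CHIR-P6 lay within the earlier lines and the later NESC lines below them. NDUFS3, by contrast, had 118, 121, 111 and 92.3 FPKM in the NESC lines and 114, 109 and 106 FPKM in the earlier lines. NDUFA4, counted here by its symbol but now placed in complex IV, had 185 to 231 FPKM in the NESC lines and 230 to 260 FPKM in the earlier lines (log2 difference -0.25, limma, adjusted p = 0.124), and NDUFA4L2, its hypoxia-induced paralog, stayed at or below 1.60 FPKM in all lines.

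Complex III passes electrons from quinol to cytochrome c. UQCR, named UQCR11 in RefSeq, is its smallest subunit, and had 84.6, 66.1, 44.9 and 51.0 FPKM in the NESC lines, against 102, 110 and 99.2 FPKM in the earlier lines (log2 difference -0.78, SE 0.21, limma, adjusted p = 0.0242). UQCRQ, a small subunit beside cytochrome b, had 409, 340, 314 and 266 FPKM, against 420, 562 and 440 FPKM (log2 difference -0.52, limma, adjusted p = 0.0507). The groups did not overlap for either gene. UQCR had an adjusted p under 0.05 in 15 of the 21 settings (limma, up to 0.0918), and UQCRQ in 6. UQCRH, the hinge protein that helps cytochrome c to dock and the most abundant member of all, had 871 to 1154 FPKM in the NESC lines and 733 to 1094 FPKM in the earlier lines (log2 difference 0.09, limma, adjusted p = 0.714).

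UQCR10, under LOC720636, had 112, 91.3, 84.3 and 86.9 FPKM in the NESC lines, against 134, 131 and 113 FPKM in the earlier lines (log2 difference -0.43, limma, adjusted p = 0.0399). UQCRFS1, the Rieske iron-sulfur protein under LOC700087, had 65.0 to 108 FPKM and 87.2 to 118 FPKM. UQCRB, under LOC701223, had 267 to 303 FPKM in the NESC lines and 199 to 372 FPKM in the earlier lines (log2 difference 0.10, limma, adjusted p = 0.721). CYC1, the cytochrome c1 subunit, had 79.0 to 114 FPKM in the NESC lines and 108 to 137 FPKM in the earlier lines.

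Complex V has a rotor ring of c subunits, the same mature protein made from 3 genes, ATP5G1, ATP5G2 and ATP5G3, named ATP5MC1, ATP5MC2 and ATP5MC3 in RefSeq. ATP5G2 had 168, 161, 188 and 196 FPKM in the NESC lines, against 86.6, 129 and 141 FPKM in the earlier lines. The groups did not overlap, and the log2 difference was 0.60 (SE 0.18, limma, adjusted p = 0.034), the highest of the members tested. ATP5G2 had an adjusted p under 0.05 in 15 of the 21 settings (limma, up to 0.109).

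ATP5G1 had 150, 150, 117 and 110 FPKM in the NESC lines, against 162, 191 and 151 FPKM in the earlier lines (log2 difference -0.35, limma, adjusted p = 0.108). ATP5G3, the most abundant of the 3, had 407, 356, 285 and 297 FPKM, against 355, 392 and 349 FPKM (log2 difference -0.13, limma, adjusted p = 0.494). Their sum stayed between 590 and 725 FPKM in the NESC lines and between 604 and 712 FPKM in the earlier lines. ATP5G2 made up 23.1%, 24.2%, 31.9% and 32.5% of it in the NESC lines, against 14.3%, 18.2% and 22.0% in the earlier lines. These shares rest on the same values and were given no test of their own.

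In the catalytic F1 part, ATP5D, the delta subunit of the central stalk (ATP5F1D in RefSeq), had 110, 95.2, 85.3 and 69.5 FPKM in the NESC lines, against 156, 166 and 153 FPKM in the earlier lines (log2 difference -0.83, SE 0.16, limma, adjusted p = 0.00672). ATP5E, the epsilon subunit of the same stalk and the most abundant complex V member, had 719 to 886 FPKM in the NESC lines and 745 to 805 FPKM in the earlier lines. ATP5A1, the alpha subunit, had 582 to 748 FPKM and 609 to 626 FPKM. The log2 differences of ATP5E and ATP5A1 were 0.02 and 0.07, both with an adjusted p above 0.05 (limma, 0.926 and 0.669).

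ATP5L, the g subunit of the membrane part (ATP5MG), had 204, 167, 149 and 168 FPKM in the NESC lines, against 294, 254 and 242 FPKM in the earlier lines (log2 difference -0.62, limma, adjusted p = 0.0113). ATP5O, the subunit that joins the stalk to F1, had the smallest range of all members, with 293 to 308 FPKM in the NESC lines and 281 to 306 FPKM in the earlier lines. ATP5S and ATP5SL matched the name rule but are no ATP synthase subunits. The locus of ATP5SL had 44.3, 40.9, 39.8 and 37.3 FPKM in the NESC lines, against 72.5, 54.6 and 47.6 FPKM in the earlier lines (log2 difference -0.49, limma, adjusted p = 0.043). ATP5SL had an adjusted p under 0.05 in 10 of the 21 settings (limma, up to 0.108).

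**Figure D3:**
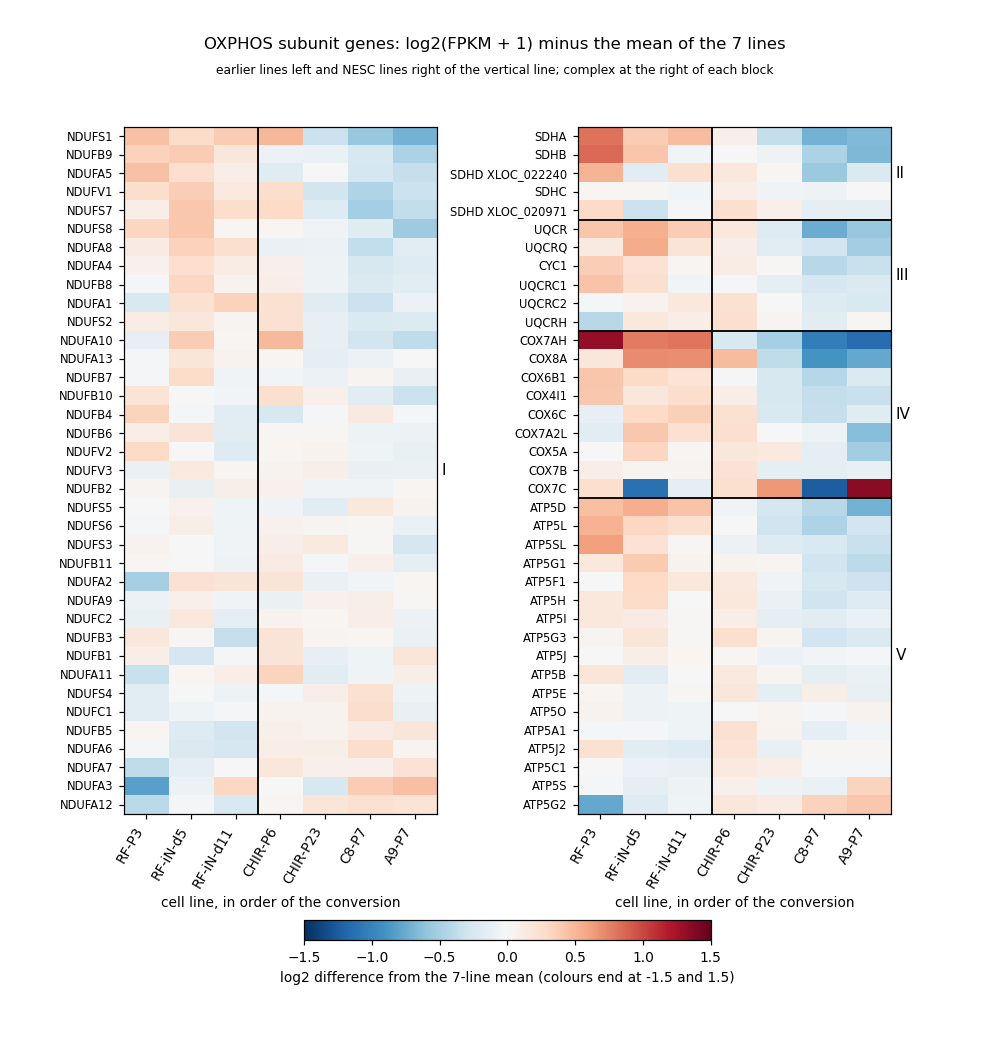
Log2(FPKM + 1) of the 74 tested members minus each gene's mean over the 7 lines, by complex and, within it, by log2 difference of NESC minus earlier lines; columns follow the conversion, with the earlier lines left of the vertical line and the NESC lines right of it. Most rows are pale, COX7AH has the strongest contrast between the sides, and the colonies C8-P7 and A9-P7 are the bluest columns of complexes II, III and IV.

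Single steps of the conversion were compared next. Each line is 1 sample, so these are descriptions, and a member was counted at 2-fold or more in log2(FPKM + 1). Of the 74 members, 0 were higher by 2-fold at any of the 6 steps. At day 5 against RF-P3, 1 was lower (all genes: 9.37% higher and 8.42% lower), and at day 11 against day 5, 0 were lower (2.85% and 2.52%). In CHIR-P6 against RF-iN-d11, 1 was lower (8.49% and 13.1%), which was COX7AH. In CHIR-P23 against CHIR-P6, 0 were lower (1.39% and 4.28%). In C8-P7 against CHIR-P23, 1 was lower (1.04% and 2.39%), and in A9-P7 against CHIR-P23, 0 (1.57% and 2.59%). The members lower at day 5 and in C8-P7 were both the locus labelled COX7C, which had 3.81 to 27.9 FPKM in the NESC lines and 4.24 to 12.6 FPKM in the earlier lines, stands among genes of another chromosome and differed by 0.79 on the log2 scale between the 2 libraries of C8-P7. The abundant COX7C transcript is under LOC106998836, with 333 to 494 FPKM in the NESC lines and 377 to 520 FPKM in the earlier lines.

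Small differences of the same sign were common after passage 6. In CHIR-P23 against CHIR-P6, 63 of 74 members were lower, with a median of -0.15, against 7682 of 15024 genes with a median of -0.01. In C8-P7 and A9-P7 against CHIR-P23, 53 and 50 members (71.6% and 67.6%) were lower, against 46.9% and 50.1% of all genes. The medians of the members were -0.12 and -0.10, against 0.00 for all genes at both steps. These steps share the line CHIR-P23. Relative to the median of all genes at each of the 3 steps, 60, 53 and 50 members lay below it. At day 5 against RF-P3, 42 members were higher (49.4% of all genes), at day 11 against day 5, 53 were lower (50.8%), and in CHIR-P6 against RF-iN-d11, 47 were higher (49.0%). The lowest of the 7 lines was a colony in 45 members, or 60.8%, against 28.9% of all genes tested. With all libraries rescaled to the same total this was 34 members, or 45.9%, against 24.7%.

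The complexes did not share these steps evenly. After CHIR-P6, complex I core subunits had a median of -0.35 in CHIR-P23, against -0.07 for the accessory ones. Of the 7 core subunits, the doubtful NDUFV2 locus included, 5 were lower in CHIR-P23 than in CHIR-P6, and all 7 were lower in each colony than in CHIR-P23. All 6 complex III members were lower in CHIR-P23 than in CHIR-P6, and again in each colony than in CHIR-P23. Of the complex III subunits under LOC numbers, not among these 6, UQCR10 and UQCRFS1 went the same way. UQCRB did not, with 284 FPKM in CHIR-P6 and 303, 290 and 267 FPKM in CHIR-P23, C8-P7 and A9-P7. Complex IV members had medians of -0.27 in CHIR-P23 against CHIR-P6 and -0.19 in C8-P7 and -0.10 in A9-P7 against CHIR-P23. In C8-P7 all 9 were lower than in CHIR-P23, and in A9-P7 5 were lower and 4 higher. Complex II had its lowest step earlier, with a median of -0.43 at day 5 against RF-P3.

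The summed FPKM of the 74 members was 15560, 13557, 12851 and 12915 FPKM in the NESC lines, against 15042, 15677 and 14921 FPKM in the earlier lines. CHIR-P6 lay among the earlier lines, and the other NESC lines were lower than all of them. As a share of the library total this was 2.57%, 2.31%, 2.18% and 2.26% in the NESC lines, against 2.16%, 2.56% and 2.40% in the earlier lines, so that RF-P3, with the largest total, had the lowest share. Over the 7 lines the highest sum was 1.11 times the lowest for complex I, 1.19 times for complex V, 1.41 times for complex III, 1.60 times for complex IV and 1.89 times for complex II. These are sums over members only. Those of complexes III and IV leave out the subunits under LOC numbers, and that of complex IV includes the COX7C locus among genes of another chromosome. The sum of complex II counts both SDHD loci, and that of complex V counts ATP5S and ATP5SL.

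**Figure D4:**
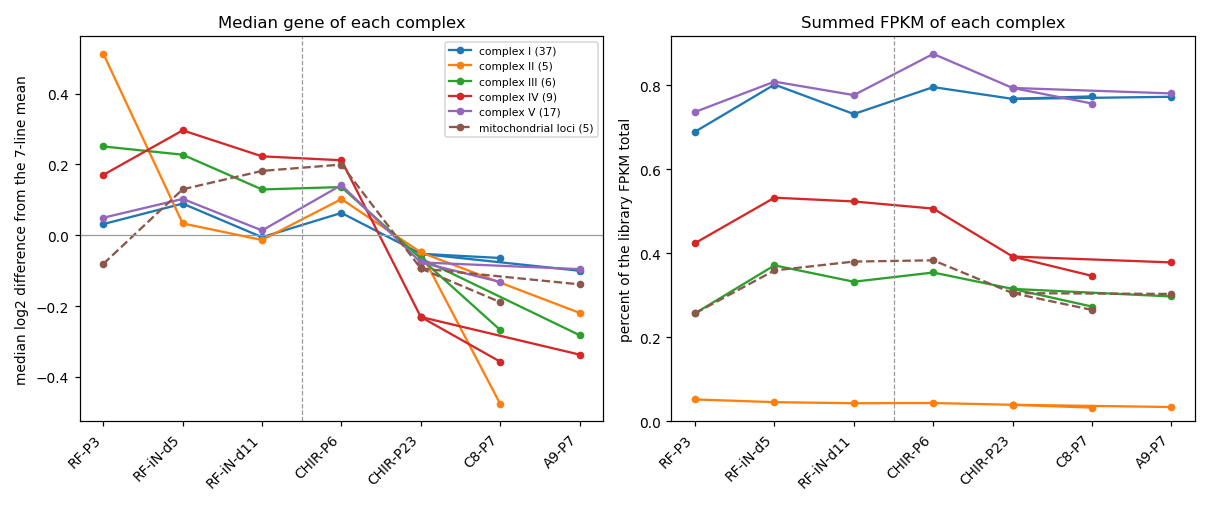
Left, median over the tested genes of each complex, and over the 5 mitochondrial loci, of the log2 difference from the 7-line mean; right, summed FPKM in percent of the library total; lines follow the conversion, both colonies are joined to CHIR-P23, the dashed vertical line separates the earlier lines (left) from the NESC lines, and numbers in brackets are genes. The medians of all complexes are above 0 in CHIR-P6 and below 0 in CHIR-P23, C8-P7 and A9-P7, and the share of complex IV is 0.506% in CHIR-P6 and 0.392%, 0.346% and 0.378% in the later NESC lines.

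The mitochondrial-encoded subunits stood on 5 merged loci, 0 of which were called by limma (0 at an unadjusted p under 0.05). The locus of COX1 and COX2, catalytic subunits of complex IV, had 1030, 825, 666 and 780 FPKM in the NESC lines, against 871, 1045 and 1185 FPKM in the earlier lines (log2 difference -0.33, limma, adjusted p = 0.175). The locus that holds ND5 with the genes ATP8 to ND4 had 194 to 252 FPKM in the NESC lines and 209 to 250 FPKM in the earlier lines, and the CYTB locus, the cytochrome b of complex III, 293 to 384 FPKM and 316 to 370 FPKM. All 3 were lowest in C8-P7. The ND1-ND2 locus was lowest in RF-P3 (177 FPKM, log2 difference of NESC minus earlier lines 0.12). The ND6 locus was lowest in A9-P7 (184 FPKM, log2 difference -0.24).

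The nuclear members summed to 6.72, 7.57, 8.24 and 7.45 times the mitochondrial loci in the NESC lines, against 8.39, 7.11 and 6.33 times in the earlier lines. These ranges overlapped. Mitochondrial loci were at their highest median in CHIR-P6 and, like the nuclear members, lower in the later NESC lines.

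Genes that build or feed the complexes were counted from lists written from general knowledge. Of 39 assembly factors tested, 2 rose and 1 fell (limma), where 7.57% and 13.2% of all genes were called. At an unadjusted p under 0.05, 8 were higher and 4 lower (limma), where the shares over all genes were 22.1% and 26.4%. The median log2 difference of the 39 was 0.05. TTC19, which clears fragments of the Rieske protein from complex III, had 33.3, 30.6, 28.8 and 31.1 FPKM in the NESC lines, against 11.0, 12.2 and 16.3 FPKM in the earlier lines (log2 difference 1.19, limma, adjusted p = 0.00141). ATPAF1, a chaperone of the F1 beta subunit, had 33.6, 37.3, 40.3 and 36.6 FPKM, against 12.3, 21.2 and 18.3 FPKM (log2 difference 1.09, limma, adjusted p = 0.00418). COX14, needed for COX1 synthesis, had 14.5, 11.4, 7.90 and 10.5 FPKM, against 31.8, 24.1 and 19.2 FPKM, and fell by 1.11 on the log2 scale (limma, adjusted p = 0.00976). Without RF-P3 the differences of ATPAF1 and COX14 were 0.87 and -0.93, and without C8-P7 that of COX14 was -0.97, all short of 2-fold, as was COX14 at -0.99 with libraries rescaled to the same total and -0.96 after quantile normalization. With a pseudocount of 5 all 3 were short of 2-fold, at 0.99 for TTC19, 0.93 for ATPAF1 and -0.89 for COX14.

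Of 17 regulators of mitochondrial biogenesis tested, 0 rose and 1 fell (limma), where 7.57% and 13.2% of all genes were called. At an unadjusted p under 0.05, 2 were higher and 3 lower (limma), where the shares over all genes were 22.1% and 26.4%. ESRRA, a nuclear receptor that drives OXPHOS genes in energy-demanding tissues, had 13.96, 10.9, 7.91 and 5.93 FPKM in the NESC lines, against 19.0, 24.4 and 22.8 FPKM in the earlier lines, and fell by 1.16 on the log2 scale (limma, adjusted p = 0.0127). Without A9-P7 its difference was -0.97, short of 2-fold, as it was at -0.91 with a pseudocount of 5, and with no filter on low values its adjusted p was 0.0574. TFAM, which packs and transcribes mitochondrial DNA, had 61.7, 82.2, 77.7 and 69.3 FPKM, against 52.4, 30.1 and 32.4 FPKM (log2 difference 0.94, limma, adjusted p = 0.0111), just below 2-fold. TFAM passed 2-fold without RF-P3 (1.19), without CHIR-P6 (1.02) and with rescaled libraries (1.07). NRF1, a transcription factor of many subunit genes, had 6.80, 7.61, 8.21 and 8.76 FPKM, against 6.43, 4.15 and 4.06 FPKM (log2 difference 0.61, limma, adjusted p = 0.0401). NRF1 had an adjusted p under 0.05 in 15 of the 21 settings (limma, up to 0.116).

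The coactivators were low. PPARGC1A (PGC-1 alpha) had 1.95, 1.13, 0.146 and 0.263 FPKM in the NESC lines, against 0.423, 0.633 and 0.618 FPKM in the earlier lines (log2 difference 0.16, limma, adjusted p = 0.739). PPARGC1B had 1.14, 1.42, 0.484 and 0.792 FPKM, against 2.47, 2.37 and 1.79 FPKM (log2 difference -0.73, limma, adjusted p = 0.0389). It had an adjusted p under 0.05 in 12 of the 20 settings that kept it (limma, up to 0.135). At these levels a pseudocount of 1 compresses the differences.

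Of 19 citric acid cycle loci tested, 0 rose and 1 fell (limma), where 7.57% and 13.2% of all genes were called. At an unadjusted p under 0.05, 2 were higher and 5 lower (limma), where the shares over all genes were 22.1% and 26.4%. The median log2 difference of the 19 was -0.23. IDH3A, the catalytic subunit of the NAD-dependent isocitrate dehydrogenase, had 24.1, 29.0, 17.3 and 12.02 FPKM in the NESC lines, against 68.9, 46.2 and 38.2 FPKM in the earlier lines, and fell by 1.30 on the log2 scale (limma, adjusted p = 0.0163, or 0.0778 with no filter on low values). Of 6 further genes (CYCS, ETFA, ETFB, ETFDH, NDUFA4L2 and NDUFAB1), 0 rose and 1 fell (limma). At an unadjusted p under 0.05, 1 was higher and 2 lower (limma). The higher one was NDUFAB1 (log2 difference 0.25), which is no electron carrier and has an NDUF symbol that the name rule did not match. NDUFA4L2 is no electron carrier either. The shares over all genes are those given for the citric acid cycle loci. ETFB, which hands over electrons from fatty acid oxidation, had 46.6, 31.6, 25.1 and 34.4 FPKM, against 71.8, 81.3 and 74.0 FPKM, and fell by 1.15 on the log2 scale (limma, adjusted p = 0.00426), or by 0.98, short of 2-fold, after quantile normalization. CYCS, the cytochrome c between complexes III and IV, had 114, 133, 85.0 and 70.1 FPKM, against 172, 154 and 110 FPKM (log2 difference -0.54, limma, adjusted p = 0.124).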

How the data were processed

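Total RNA of 7 cell lines (14 libraries) was measured. The deposited FPKM were made by the authors, whose processing notes list HISAT2 2.1.0, Cufflinks 2.2.1, Cuffnorm 2.2.1 and the build Mmul_8.0.1. Between-library normalization by Cuffnorm and merged mitochondrial loci can shift levels. In 28445 loci the values stood 1 row below their label and were moved back, 49 labels were left out, and 33688 of 33737 loci kept values. Against the study's gene table, 97.1% of 34 members then matched in all 7 averages, against 11.8% before.

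The libraries of a line were compared through low values that are whole multiples of a step (6956 genes) and differed by less than sampling noise (squared difference over sum 0.114 to 0.136, where 1 is noise), so they were averaged. The p-values measure the spread between lines, which are stages of a single conversion. limma 3.58.1 (R 4.3.3, intensity trend) was fitted to log2(FPKM + 1) of 15024 genes that reached 1 FPKM in 2 or more libraries, with 5 residual degrees of freedom. It was tested on simulated data. Fold changes are on this scale and understate those of low genes. Depth in reads was not used. Python 3.11.15, NumPy 2.4.6, pandas 2.3.3 and Matplotlib 3.10.9 made tables and figures.

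Members, lists and tests were chosen with earlier results of these data known. Genes named were: called members, members with an adjusted p under 0.05, per complex the 2 most abundant and those with the highest and lowest difference, isoform pairs, SDH genes, mitochondrial loci, called genes of the other lists, and 5 regulators and carriers. Others (COX5A, CYC1, NDUFV1, NDUFS7, NDUFS3, ATP5O and LOC-numbered subunits) were chosen after their values were seen. Alternatives were other pseudocounts, filters and scalings, lines or libraries left out, and 14 libraries with and without a replicate block. RefSeq (T2T-MMU8v2.0) gave names and neighbours only: 71 of 78 loci lay among genes of their own chromosome, 4 did not (NDUFV2, COX7C, COX7A2L and 1 SDHD locus) and 3 had no entry. Counts, reads and sequences were not used here.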

Additional observations from a re-analysis of the deposited data

Results flagged for a closer look

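Among the 4 NESC lines a single line stood apart in 2 of the 57 results checked, where chance alone sets apart about 1 in 20. COX7B had 695 FPKM in CHIR-P6, above 543 to 554 FPKM in the other NESC lines. COX6A1, under LOC696956, had 360 FPKM in CHIR-P6, above 283 to 293 FPKM in the other NESC lines. Both are complex IV subunits, and in both CHIR-P6 was the highest NESC line. The groups of 3 earlier lines were not examined in this way.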

How the results depend on the processing

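COX7AH was lower and called under all 20 alternatives, and the 13 members with an adjusted p under 0.05 kept their direction in all 273 values. These 13 were picked by the main fit, and the 273 values include that fit. Filters, the intensity trend and the minimum fold cannot change a difference, so part of this agreement was fixed in advance. At an adjusted p under 0.05 with no minimum fold, 2 members were higher and 11 lower, where the shares over all genes were 16.8% and 20.6%. These counts were 0 and 6 with no filter, 5 and 7 rescaled, 5 and 5 after quantile normalization, and 5 and 27 over 14 libraries. Leaving out a line gave 3 and 9 (RF-P3), 1 and 5 (RF-iN-d5), 2 and 10 (RF-iN-d11), 1 and 16 (CHIR-P6), 0 and 8 (CHIR-P23), 0 and 5 (C8-P7) and 0 and 6 (A9-P7). Shares over all genes are not given for these alternatives. The fit over 14 libraries takes both libraries of a line as samples, though they differ by less than sampling noise, so its p-values are too small. With the 2-fold minimum, leaving out a line or a library gave 0 members called higher and 1 to 3 lower. The additional calls were SDHA (without RF-iN-d5, RF-iN-d11 or CHIR-P6) and COX8A (without CHIR-P6). The median of the members was 0.0183 rescaled to the same total, 0.0180 rescaled without mitochondrial loci and 0.0467 after quantile normalization, and -0.167 to -0.0725 with a line or library left out. The replicate numbers did not pair the libraries (correlations of -0.03 to 0.065 over 21 pairs of lines). With a replicate block over 14 libraries, 0 members were higher and 1 lower, as without it. In single steps, members past 2-fold numbered 0 lower at day 5 and 0 lower in CHIR-P6 with a pseudocount of 5, 1 higher at day 11 with a pseudocount of 0.1, and 1 higher at day 5, 1 higher at day 11 and 0 lower in CHIR-P6 after quantile normalization; with a single library a line, 0 to 1 were higher at day 11 and 0 to 1 lower in CHIR-P6. The 6 doubtful labels were NDUFV2, COX7C, COX7A2L, the SDHD locus among genes of another chromosome, ATP5S and ATP5SL. Setting them aside or adding the 8 LOC loci (both chosen after seeing the data) changed no count of calls. At an adjusted p under 0.05 this gave 2 and 10, and 2 and 14.

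Small differences of uncalled genes changed sign. With libraries rescaled to the same total, rescaled without mitochondrial loci and after quantile normalization they were 0.0462, 0.0460 and 0.128 for NDUFB4, 0.114, 0.113 and 0.165 for SDHC, 0.0233, 0.0231 and 0.216 for COX7B and 0.0193, 0.0190 and 0.124 for the CYTB locus. The ND5 locus had 0.0096 and 0.0094 after both rescalings, and ATP5G3 0.0791 and COX6A1 0.0471 after quantile normalization. With a line or library left out, differences ran between -0.0493 and 0.0528 for NDUFS5, -0.186 and 0.0606 for NDUFB4, -0.0474 and 0.0115 for SDHC, -0.127 and 0.177 for the SDHD locus among genes of another chromosome, -0.0965 and 0.192 for UQCRH, -0.0400 and 0.0606 for ATP5E, -0.0012 and 0.120 for ATP5A1, -0.0832 and 0.302 for the ND1 locus and -0.0958 and 0.359 for PPARGC1A. Causes were not tested. Depth was recovered only relative to RF-P3, and no counting interval was computed for low genes.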
